A study of Mus musculus with 130 samples.

Results

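The comparison set mouse embryonic stem cells lacking the DNA methyltransferases Dnmt1, Dnmt3a and Dnmt3b (triple knockout, TKO), against wild-type J1 cells (WT J1). It rests on 1 RNA-seq library of each, 2 of the 10 RNA libraries among the 130 samples of the study. The genes described reached 1 CPM (counts scaled to library size) in TKO or WT J1 cells, chromosome Y genes left out, which were 13829 of the 52550 genes in the tables. Both lines carry the strain label 129S4/SvJae, and the TKO genotype is given as Dnmt1/3a/3b-/-, with no clone named. Beside them stand a Dnmt3a/3b double knockout (DKO, same strain label, genotype Dnmt 3a/3b-/-) and another untreated wild type, TT2 (WT TT2, C57BL/6xCBA). A second TT2 library, the DMSO control of a G9a inhibitor series (inhibitor control), is given for a few genes at which it differed from WT TT2. The 4 lines were cultured on gelatin, in serum medium with LIF (leukemia inhibitory factor), the cytokine that keeps such cells self-renewing. Total RNA went into Smart-seq2 libraries, in which whole cDNAs are amplified by PCR.

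DNA methylation places a methyl group on the cytosine of CpG dinucleotides. Dnmt3a and Dnmt3b, helped by the inactive cofactor Dnmt3l, set new methylation, and Dnmt1, guided by Uhrf1, copies it onto the new strand after replication. In embryonic stem cells methylation is known for silencing germline genes, gene clusters of the X chromosome, 1 parental copy of imprinted genes and retrotransposons, and the cells survive without it as long as they are not made to differentiate.

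The TKO library held 17595050 counts and the WT J1 library 16405518, against 11436808 to 25609600 over the 10 RNA libraries. With 1 library per group there is no replicate spread and no test between conditions. Intervals given below are exact 95% counting intervals of the ratio of the libraries. They allow for counting error only, not for spread between cultures or clones. Reads amplified by PCR and not tagged by molecule are not independent, so the intervals can be too narrow even for counting error. The size rule for calling a gene asked for a difference in log2(CPM + 1) of at least 1 either way and a counting interval that left out a ratio of 1. In bulk RNA, fewer cells of a type and less RNA per cell cannot be told apart.

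All 3 targeted genes were lower in the TKO library, which still held reads of each. Dnmt1 (chr9:20907206-20959888, GRCm38) had 6.28 CPM in TKO cells, against 45.9 CPM in WT J1 cells, 7.31-fold lower (interval 6.00 to 8.98). Dnmt3b (chr2:153649411-153687730) had 2.65 CPM in TKO cells and 26.5 CPM in WT J1 cells, 9.99-fold lower (7.41 to 13.7). The DKO library, in which only the de novo enzymes are deleted, kept Dnmt1 at 62.0 CPM and had 3.02 CPM of Dnmt3b. The levels of Dnmt1 and Dnmt3b thus match the label of each library. Dnmt3a (chr12:3801559-3914443) had 4.71 CPM in TKO cells, against 17.1 CPM in WT J1 cells, 3.63-fold lower (2.84 to 4.69). On the deposited length-scaled values (TPM, a measure of transcripts), which divide by a transcript length estimated in each library, it had 4.49 TPM in TKO cells and 4.66 TPM in WT J1 cells, so the direction of Dnmt3a rests on the counts. In DKO cells Dnmt3a had 4.27 CPM and 5.07 TPM, below WT J1 on counts but not on TPM. WT TT2 cells had 56.5 CPM of Dnmt3a and 107 CPM of Dnmt3b, above WT J1 cells. Counts over a whole gene do not show which exons the remaining reads came from.

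The partners of these enzymes did not move together. Dnmt3l, the inactive cofactor, had 255 CPM in TKO cells and 33.2 CPM in WT J1 cells, 7.70-fold higher (7.02 to 8.46), and its level was 205 CPM in DKO cells and 77.3 CPM in WT TT2 cells. Uhrf1, which brings Dnmt1 to newly copied DNA, had 90.8 CPM in TKO cells and 93.6 CPM in WT J1 cells, a ratio within counting error. Hells, a chromatin remodeller needed for methylation, had 514 CPM in TKO cells, against 354 CPM in WT J1 cells, under the size threshold. Uhrf2, a relative of Uhrf1, had 37.1 CPM in TKO cells and 56.8 CPM in WT J1 cells, also under it.

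Of the 13829 measured genes, 1539 (11.1%) were higher in TKO cells and 1458 (10.5%) were lower, with a median difference over all of them of -0.01. Among the 12680 with at least 1 CPM in WT J1 cells, 7.59% were higher. The split depended on the scaling: 51.4% of these calls were higher with the composition factors used here, 65.5% when libraries were scaled by total count alone, and 73.0% on the deposited TPM, where the median of all genes lay at 0.16 and 0.31. Calls on the deposited TPM asked for the size threshold and 1 TPM in either library, with no counting interval. With WT TT2 as the control, 972 of 13757 measured genes were higher and 1026 lower. Against WT J1 the upper tail was longer. There were 266 genes higher by at least 2 on the log2 scale and 204 lower, and 27 higher by at least 4 against 7 lower. Of the higher genes, 576 (37.4%) were under 1 CPM in WT J1 cells and 116 of those had no count there. Of the lower genes, 284 (19.5%) were under 1 CPM in TKO cells and 23 had no count. Long noncoding RNAs were 3.65% of the higher genes and 11.2% of the lower ones, against 3.89% of measured genes with a known type.

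**Figure D1:**
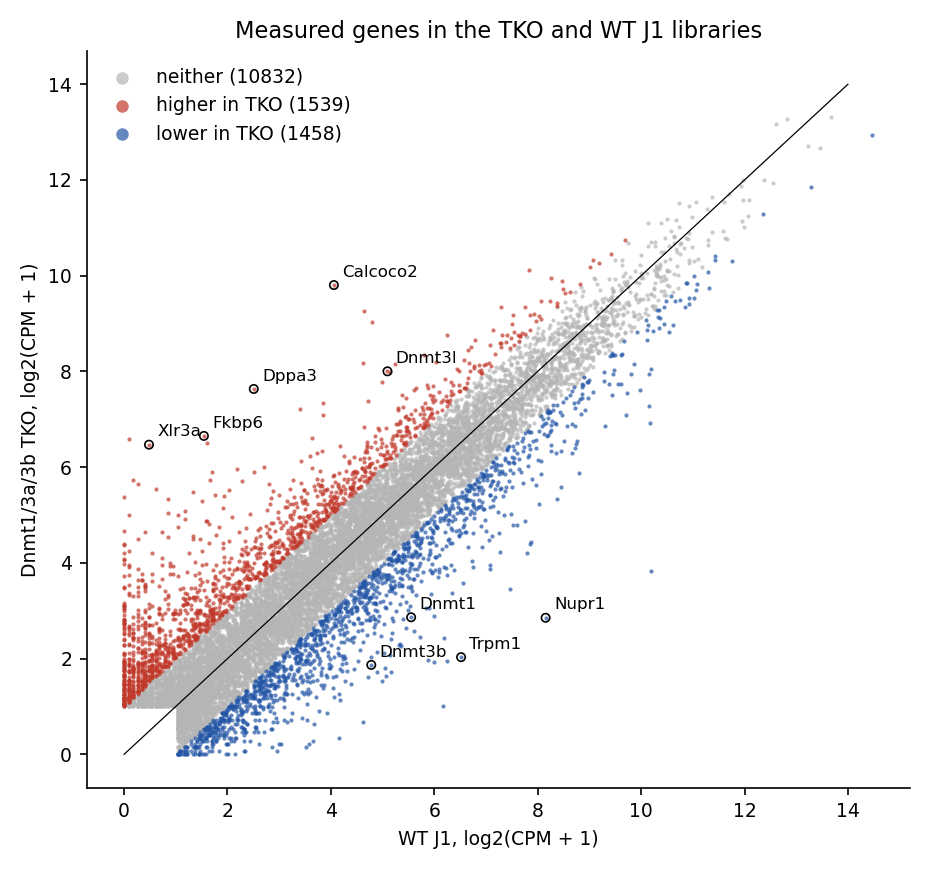
Levels of the 13829 measured genes, TKO cells on the vertical axis and WT J1 cells on the horizontal axis, both as log2(CPM + 1), 1 library each; the line marks equal levels and circled genes are named. The 1539 higher genes reach farther from the line than the 1458 lower ones, and many of them start at the left edge, near 0 in WT J1 cells.

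The 15 largest increases among protein-coding genes with standard symbols, clone names left out, were mostly in germline, X-linked and early-embryo genes. Exceptions were Mgl2, Aass and Stmn2. Xlr3a, an X-linked lymphocyte-regulated gene related to proteins of meiotic chromosomes, had the largest increase, with 87.6 CPM in TKO cells, against 0.396 CPM in WT J1 cells. Calcoco2, an autophagy receptor gene that the list of 2-cell-stage genes includes, had 893 CPM in TKO cells, against 15.7 CPM in WT J1 cells, 57.1-fold higher (50.2 to 65.1). Mgl2, a galactose-binding lectin gene of macrophages and dendritic cells, had 40.5 CPM in TKO cells and no count in WT J1 cells, at least 205-fold higher against a floor of 3 counts per library. None of the 3 was as high in WT TT2 cells, which had 60.2 CPM of Xlr3a, 80.1 CPM of Calcoco2 and 1.48 CPM of Mgl2. The other 12 genes of the largest 15 were Xlr4a, Xlr3b, Dppa3, Fkbp6, Xlr3c, Xlr4b, Aass, Asz1, Stmn2, Xlr4c, Magea8 and Nxf3. Aass, an enzyme of lysine breakdown, had 89.4 CPM in TKO cells and 2.05 CPM in WT J1 cells, 43.6-fold higher (30.6 to 64.4), and was higher still in DKO cells, at 308 CPM. Nxf3, an X-linked RNA export factor gene, had 21.5 CPM in TKO cells and 0.198 CPM in WT J1 cells, from 3 counts, a ratio of 109 (36.9 to 529).

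Germline genes with CpG-rich promoters are the textbook targets of methylation in these cells. Promoters of 4 listed germline genes with large increases are printed first, without Dppa3, which had the largest log2 difference of the germline targets listed. Those of Nupr1 and Trpm1, which led the lower protein-coding genes with standard symbols, follow. Each is 300 bases, from 250 before the start of the gene to 50 after it, 5′ to 3′ on the gene's strand, from RefSeq (GRCm38.p6), with CpG dinucleotides in capitals. The windows are Fkbp6 chr5:135349995-135350294 (minus strand), Asz1 chr6:18109012-18109311 (minus), Tuba3a chr6:125286032-125286331 (minus), Tex19.1 chr11:121145893-121146192 (plus), Nupr1 chr7:126625421-126625720 (minus) and Trpm1 chr7:64153585-64153884 (plus).
Fkbp6: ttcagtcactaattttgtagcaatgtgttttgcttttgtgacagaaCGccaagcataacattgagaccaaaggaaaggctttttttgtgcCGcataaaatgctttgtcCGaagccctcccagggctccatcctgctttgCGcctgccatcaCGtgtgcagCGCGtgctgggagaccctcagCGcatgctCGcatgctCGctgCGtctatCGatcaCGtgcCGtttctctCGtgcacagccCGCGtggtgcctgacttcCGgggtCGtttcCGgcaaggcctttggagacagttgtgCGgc
Asz1: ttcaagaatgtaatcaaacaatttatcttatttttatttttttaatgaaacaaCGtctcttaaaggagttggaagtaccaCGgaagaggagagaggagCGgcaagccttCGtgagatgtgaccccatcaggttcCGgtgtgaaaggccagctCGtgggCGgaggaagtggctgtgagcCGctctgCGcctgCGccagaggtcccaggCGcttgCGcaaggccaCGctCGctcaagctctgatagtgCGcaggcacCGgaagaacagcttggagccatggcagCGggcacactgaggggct
Tuba3a: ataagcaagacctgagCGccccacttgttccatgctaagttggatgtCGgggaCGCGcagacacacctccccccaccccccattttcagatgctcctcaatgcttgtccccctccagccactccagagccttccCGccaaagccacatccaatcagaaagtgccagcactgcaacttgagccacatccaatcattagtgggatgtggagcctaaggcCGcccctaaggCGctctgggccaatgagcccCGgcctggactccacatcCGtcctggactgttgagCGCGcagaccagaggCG
Tex19.1: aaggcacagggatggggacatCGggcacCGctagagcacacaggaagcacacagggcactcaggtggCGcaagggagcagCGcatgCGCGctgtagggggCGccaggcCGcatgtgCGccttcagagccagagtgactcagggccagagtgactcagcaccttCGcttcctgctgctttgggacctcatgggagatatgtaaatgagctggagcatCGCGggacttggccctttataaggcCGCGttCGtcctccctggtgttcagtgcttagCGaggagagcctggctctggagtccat
Nupr1: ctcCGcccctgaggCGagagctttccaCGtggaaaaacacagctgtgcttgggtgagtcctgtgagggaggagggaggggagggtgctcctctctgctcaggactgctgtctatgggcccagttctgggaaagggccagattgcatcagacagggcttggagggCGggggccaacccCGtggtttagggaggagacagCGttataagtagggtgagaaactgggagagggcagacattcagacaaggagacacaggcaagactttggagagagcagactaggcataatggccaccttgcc
Trpm1: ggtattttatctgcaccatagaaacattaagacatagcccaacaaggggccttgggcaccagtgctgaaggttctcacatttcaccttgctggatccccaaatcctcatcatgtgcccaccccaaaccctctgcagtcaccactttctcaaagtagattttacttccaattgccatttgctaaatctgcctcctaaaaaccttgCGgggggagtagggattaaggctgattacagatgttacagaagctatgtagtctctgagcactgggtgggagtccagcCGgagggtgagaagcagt
The 4 germline windows held 21, 17, 12 and 16 CpGs in the order printed, against 6 in Nupr1 and 2 in Trpm1. The median was 21 over all measured genes with a promoter, 17 among higher genes and 20 among lower ones. None of the 4 was thus above the median of measured genes, and Nupr1 and Trpm1 were poorer than most lower genes. They were searched on both strands for the NRF1 core (GCATGCG), the cyclic AMP response element core (TGACGT), an E-box (CACGTG), an E2F-type motif (TTCCCGC) and a TATA box (TATAAA). Fkbp6 and Tex19.1 held the NRF1 core, Fkbp6 and Nupr1 the E-box, Tuba3a the E2F-type motif and Tex19.1 a TATA box. No match says only that the letters are not in the window, and a match is not a bound site.

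Of 49 germline genes listed as targets of promoter methylation, 42 were measured, of which 18 were higher and 4 lower in TKO cells. Taking only the 34 with at least 1 CPM in WT J1 cells, which could have gone either way, 10 were higher, against 7.59% of all genes at that level. With no minimum, the counting interval of 24 of the 49 lay above a ratio of 1 and that of 12 below it, against 22.0% and 22.4% of the 24858 genes with any count. Fkbp6, a piRNA pathway gene needed for meiosis in males, had 99.6 CPM in TKO cells, against 1.92 CPM in WT J1 cells, 52.0-fold higher (36.1 to 77.9). Asz1, a germ-granule gene of the same pathway, had 24.6 CPM in TKO cells and no count in WT J1 cells, at least 124-fold higher. Its levels were 7.17 CPM in DKO cells and 1.81 CPM in WT TT2 cells, so TKO cells were the highest of the 4 lines.

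For other members of the list WT J1 cells stood alone as the low library. Dppa3, a maternal factor that protects methylation in the egg, had 198 CPM in TKO cells and 4.69 CPM in WT J1 cells, 42.1-fold higher (33.3 to 54.0), but 575 CPM in WT TT2 cells. Tex19.1, which restrains retrotransposons, had 160 CPM in TKO cells, against 13.3 CPM in WT J1 cells and 178 CPM in WT TT2 cells. Tuba3a, a testis alpha-tubulin gene, had 29.3 CPM in TKO cells, against 1.25 CPM in WT J1 cells and 29.5 CPM in WT TT2 cells. These 3 genes were therefore higher than WT J1 and not higher than WT TT2. The inhibitor control had 153 CPM of Dppa3, below the TKO level. Tuba3a has a near-identical copy, Tuba3b, so the reads of the pair were shared out by the counting software and the single values are uncertain.

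The 4 lower members, named after their values were seen, were meiosis genes. Sycp3, of the synaptonemal complex that joins paired chromosomes, had 26.6 CPM in TKO cells and 192 CPM in WT J1 cells, 7.21-fold lower (6.55 to 7.95). The others were Dmc1, a meiotic recombinase gene, Stag3, a meiotic cohesin gene, and Terb1, which tethers meiotic telomeres. WT TT2 cells also had less of all 4 than WT J1 cells did, with 36.1 CPM of Sycp3 and 4.37 CPM of Stag3 in WT TT2 cells, so WT J1 was here the high library.

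The 10 Xlr genes, an X-linked family of germ cells and lymphocytes, were all under 1 CPM in WT J1 cells, so those that passed the minimum could only be higher. They summed to 311 CPM in TKO cells and 1.85 CPM in WT J1 cells. With no minimum, the counting intervals of all 10 lay above a ratio of 1, against 22.0% of genes. Xlr4a had 52.5 CPM in TKO cells and 0.132 CPM in WT J1 cells, from 2 counts, a ratio of 397 (110 to 3286). Xlr3c had 45.7 CPM in TKO cells, against 0.528 CPM in WT J1 cells and 0.824 CPM in WT TT2 cells. In the DKO library Xlr3c stood at 152 CPM, above the TKO level. Xlr genes are near-identical copies, so the sum is safer to read than a member.

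Rhox genes, a cluster of X-linked homeobox genes of placenta, testis and ovary, were higher as well. Of 34 listed, 12 passed the minimum, and all 12 were higher; the 5 with at least 1 CPM in WT J1 cells were among them. With no minimum, 13 intervals lay above a ratio of 1 and 0 below it, against 22.0% and 22.4% of genes with any count. Rhox6 had 38.0 CPM in TKO cells and 1.85 CPM in WT J1 cells, 20.6-fold higher (14.1 to 31.2), with 59.9 CPM in WT TT2 cells. Rhox5, the best-known member, named after its value was seen, had 291 CPM in TKO cells, against 64.9 CPM in WT J1 cells and 484 CPM in WT TT2 cells. Both levels were thus below those of WT TT2 cells. Rhox10 went the other way, with 26.1 CPM in TKO cells, against 2.58 CPM in WT J1 cells and 6.43 CPM in WT TT2 cells.

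Mage genes, first known as tumour antigens of otherwise testis-restricted expression, were higher mainly in 1 branch. Of 21 listed, 14 were measured, 7 of them higher and 1 lower, against 11.1% and 10.5% of all measured genes. Only 6 of the 14 reached 1 CPM in WT J1 cells, and the others passed the minimum through TKO cells alone. With no minimum, 10 of the 21 intervals lay above a ratio of 1 and 1 below it, against 22.0% and 22.4% of genes with any count. Magea8 had 19.7 CPM in TKO cells and no count in WT J1 cells, at least 99.4-fold higher, with 13.2 CPM in DKO cells and 0.124 CPM in WT TT2 cells. Magea5 had 15.8 CPM in TKO cells and no count in WT J1 cells, at least 79.5-fold higher. The measured Magea genes were near 0 in both wild types and had reads in both knockouts. Among the 6 Mage genes with at least 1 CPM in WT J1 cells 1 was higher, against 7.59% of all genes at that level. The lower member, named after its value was seen, was Mageh1.

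Genes of the 2-cell embryo are expressed by a small share of embryonic stem cells at any time. Of 29 listed, 10 were measured and 9 were higher, but only Calcoco2 had at least 1 CPM in WT J1 cells and the others passed the minimum through TKO cells alone. With no minimum, 11 of the 29 intervals lay above a ratio of 1 and 0 below it, against 22.0% and 22.4% of genes with any count. Zscan4d, of a zinc-finger cluster that marks this state and extends telomeres, had 9.42 CPM in TKO cells, against 0.0661 CPM in WT J1 cells, from 1 count, a ratio of 143 (25.2 to 5663). Zscan4a had 8.88 CPM in TKO cells and 0.198 CPM in WT J1 cells, from 3 counts, a ratio of 44.8 (15.1 to 219). Zscan4d stood at 3.56 CPM in DKO cells and 0.659 CPM in WT TT2 cells, so TKO was the highest of the 4. Members of the Zscan4 cluster share reads, and their separate values are uncertain.

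A list of PRAME-family genes and oocyte Nlrp4 genes lay in the same direction. Of 25 listed, 9 were measured and 7 were higher, and 4 of the 9 passed the minimum through TKO cells alone. Of the 5 with at least 1 CPM in WT J1 cells 3 were higher, against 7.59% of all genes at that level. Pramel6, a PRAME-family gene of naive pluripotent cells, had 18 CPM in TKO cells and 0.0661 CPM in WT J1 cells, from 1 count, a ratio of 272 (48.5 to 10780). Pramel7, whose product promotes the breakdown of Uhrf1, had 14.8 CPM in TKO cells and no count in WT J1 cells, at least 74.8-fold higher. Khdc3, of the maternal complex under the egg's surface, had 147 CPM in TKO cells, against 9.51 CPM in WT J1 cells, 15.4-fold higher (13.1 to 18.4). These 3 genes were lower in DKO than in TKO cells, at 3.14, 2.85 and 74.2 CPM.

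**Figure D2:**
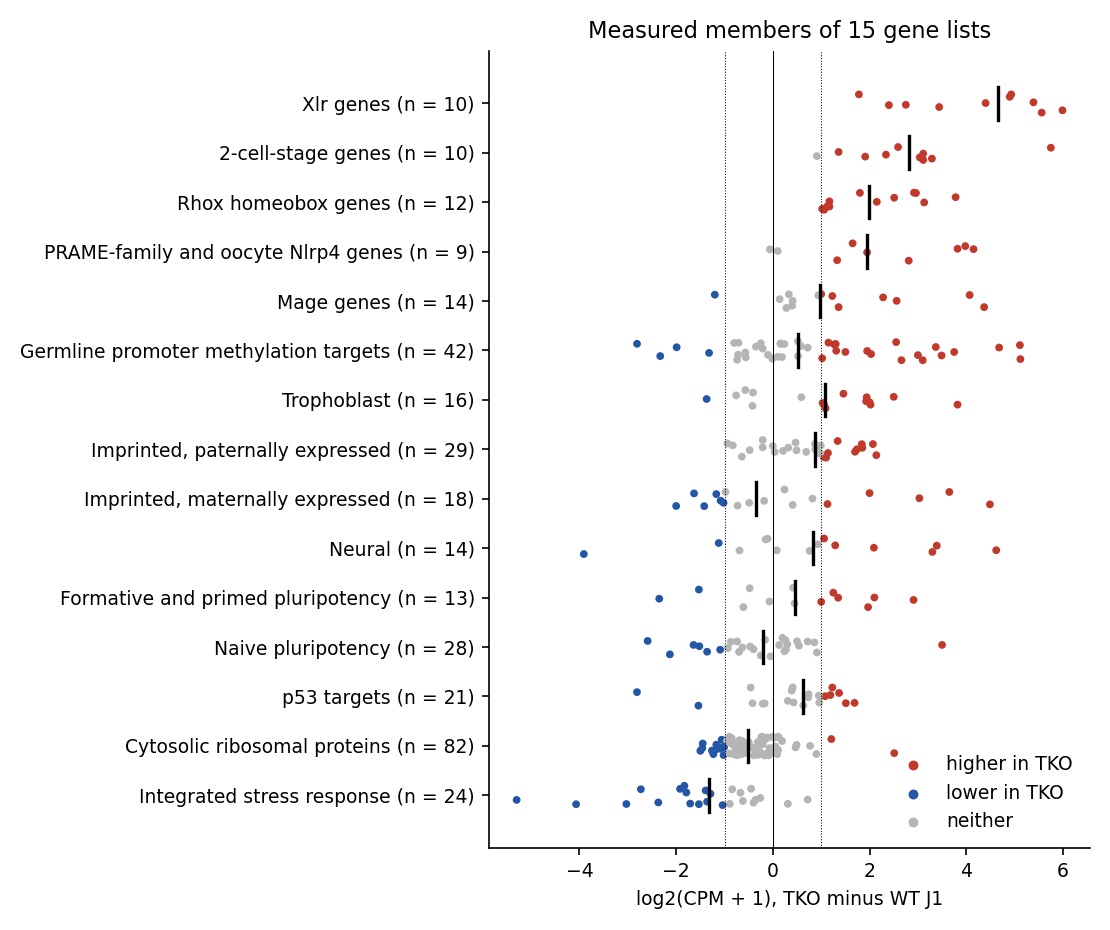
Difference in log2(CPM + 1), TKO minus WT J1, for each measured member of 15 gene lists; points are genes, black bars list medians, dotted lines the threshold of 1 either way. Xlr, 2-cell and Rhox genes lie to the right of 0 and integrated stress response genes mostly to the left, with medians of 4.65, 2.82, 1.98 and -1.32.

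Imprinted genes, read from 1 parental copy, were split by the copy that is normally expressed. Of 29 measured genes of the paternal copy, 10 were higher and 0 lower, against 11.1% and 10.5% of all measured genes. Their median difference was 0.88. Restricted to the 22 with at least 1 CPM in WT J1 cells, 6 were higher, against 7.59% of all genes at that level. Peg3, a zinc-finger gene, had 35.2 CPM in TKO cells, against 7.60 CPM in WT J1 cells, 4.63-fold higher (3.79 to 5.70), with 74.6 CPM in DKO cells and 49.1 CPM in WT TT2 cells. Snrpn, of the Prader-Willi region, had 468 CPM in TKO cells, against 139 CPM in WT J1 cells and 1029 CPM in WT TT2 cells. Set against WT TT2 the same list had 5 higher and 4 lower, against 972 and 1026 of all 13757 genes measured there.

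Of 18 measured genes of the maternal copy, 5 were higher and 6 lower in TKO cells, against 11.1% and 10.5% of all measured genes. Their median was -0.34. With total counts there were 5 higher and 3 lower members and the median was -0.02, and on the deposited TPM the median turned to 0.13. Set against WT TT2, 6 members were called higher and 0 lower, against 972 and 1026 of all 13757 genes measured there. The list median was then 0.42. H19, a noncoding RNA whose control region is methylated on the paternal copy, had 39.4 CPM in TKO cells, against 0.793 CPM in WT J1 cells, 49.7-fold higher (28.3 to 96.7). In DKO cells H19 stood at 40.3 CPM and in WT TT2 cells at 5.52 CPM. Its neighbour Igf2, a growth factor gene read from the other copy and named after its value was seen, was among the 10 higher paternal genes. Rian and Meg3, noncoding RNAs of the Dlk1 region on chromosome 12, moved as a pair: Rian had 41.5 CPM in TKO cells and 2.38 CPM in WT J1 cells, and Meg3 had 21.7 CPM in TKO cells and 1.78 CPM in WT J1 cells. Both were also low in WT TT2 cells, at 1.36 and 0.701 CPM. Rtl1, a paternally expressed gene of that region, had 2.81 CPM in TKO cells and 0.0661 CPM in WT J1 cells, from 1 count, a ratio of 42.6 (7.32 to 1715). Slc22a18, a maternally expressed transporter gene of the Cdkn1c region, had 1.89 CPM in TKO cells and 10.6 CPM in WT J1 cells, 5.58-fold lower (3.85 to 8.29), and 1.44 CPM in WT TT2 cells. No source used here gives the strand setting of the counting, and Rtl1 cannot be told apart from its antisense RNA in these counts, nor other genes from partners that overlap them.

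Of 16 measured trophoblast genes, of the lineage that forms the placenta, 10 were higher and 1 lower, against 11.1% and 10.5% of all measured genes. However, 5 of the 16 passed the minimum through TKO cells alone. Of the 11 with at least 1 CPM in WT J1 cells 6 were higher, against 7.59% of all genes at that level. Set against WT TT2, 6 of 15 were higher and 1 lower, against 972 and 1026 of all 13757 genes measured there. Plac1, an X-linked placental gene, had 14.1 CPM in TKO cells and 0.0661 CPM in WT J1 cells, from 1 count, a ratio of 213 (37.9 to 8446). Gata3, a regulator of trophoblast fate, had 5.03 CPM in TKO cells and 0.0661 CPM in WT J1 cells, from 1 count, a ratio of 76.2 (13.3 to 3042). Ascl2, an imprinted regulator of placental progenitors that stands on both lists, had 8.55 CPM in TKO cells, against 1.39 CPM in WT J1 cells. These are low levels. Over 7 defining trophoblast markers the sum was 11.7 CPM in TKO cells and 2.64 CPM in WT J1 cells, 4 of them were measured, and 1 had no count in TKO cells against 4 in WT J1 cells.

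Of 14 measured neural genes, 6 were higher and 2 lower, against 11.1% and 10.5% of all measured genes. Of the 12 with at least 1 CPM in WT J1 cells 5 were higher, against 7.59% of all genes at that level. The 5 defining neural markers summed to 45.8 CPM in TKO cells and 16.2 CPM in WT J1 cells, with 36.5 CPM in WT TT2 cells. Stmn2, a microtubule-binding protein of growing axons, had 614 CPM in TKO cells, against 24.1 CPM in WT J1 cells, 25.5-fold higher (23.0 to 28.4). It was as high in DKO cells, at 621 CPM, and stood at 290 CPM in WT TT2 cells. Pax6, a regulator of neural and eye fate, had 11.4 CPM in TKO cells and 0.264 CPM in WT J1 cells, 43.2-fold higher (16.6 to 160). Nefh, a neurofilament gene, had 58.7 CPM in TKO cells and 4.69 CPM in WT J1 cells, 12.5-fold higher (9.83 to 16.1). WT TT2 cells had 6.96 CPM of Pax6 and 17.4 CPM of Nefh, between the 2 libraries. In the opposite direction, Pou4f2, a regulator of retinal ganglion cells, had 2.92 CPM in TKO cells and 58.0 CPM in WT J1 cells, and 0.206 CPM in WT TT2 cells.

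The embryonic stem cell identity on the labels was met by both libraries: all 10 defining markers were measured in each, with 0 higher and 2 lower. Their sum was 11700 CPM in TKO cells and 26400 CPM in WT J1 cells, most of it from Dppa5a, an RNA-binding protein gene of pluripotent cells, at 7911 CPM in TKO cells and 22730 CPM in WT J1 cells. Fibroblast markers summed to 129 CPM in TKO cells and 282 CPM in WT J1 cells, nearly all from Fn1, and 11 of 15 were under 1 CPM in TKO cells and 13 in WT J1 cells. Primitive endoderm markers summed to 16.7 CPM in TKO cells and 19.4 CPM in WT J1 cells, and mesoderm markers to 6.33 CPM in TKO cells and 4.03 CPM in WT J1 cells. Whether cells of other types took part in the differences was not tested.

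Of 28 genes of naive pluripotency, the state of the early epiblast, all were measured. Of these 1 was higher and 6 lower, against 11.1% and 10.5% of all measured genes. Their median was -0.20. The median turned to 0.14 on the deposited TPM, where 4 were higher and 3 lower, against a median of 0.31 over all genes. Set against WT TT2 the median was 0.22, and 3 members were called higher and 0 lower, so none of the 6 lower calls held against the other wild type. In that comparison 972 of all 13757 measured genes were higher and 1026 lower. The core factors were close to even. Nanog had 476 CPM in TKO cells and 386 CPM in WT J1 cells, and Sox2 had 112 CPM in TKO cells and 156 CPM in WT J1 cells. Pou5f1, which has processed pseudogenes that can take its reads, had 12.5 CPM in TKO cells and 10.2 CPM in WT J1 cells, within counting error. WT TT2 cells had 13.1 CPM of Pou5f1 but the inhibitor control had 456 CPM, and the cause of that gap was not tested. Zfp42 (Rex1) had 2396 CPM in TKO cells and 2023 CPM in WT J1 cells, and Esrrb, an orphan nuclear receptor, had 88.4 CPM in TKO cells and 163 CPM in WT J1 cells.

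The 6 lower genes of naive pluripotency were Klf5, Tfcp2l1, Tcl1, Dppa5a, Klf4 and Tbx3. Klf5, a Krüppel-like factor that sustains self-renewal, had 19 CPM in TKO cells, against 120 CPM in WT J1 cells, 6.26-fold lower (5.58 to 7.03). Tfcp2l1, a transcription factor downstream of leukemia inhibitory factor, had 53.2 CPM in TKO cells, against 237 CPM in WT J1 cells, 4.45-fold lower (4.15 to 4.78). Klf4, another such target, had 34.0 CPM in TKO cells, against 89.1 CPM in WT J1 cells, 2.62-fold lower (2.38 to 2.88). WT TT2 cells held 28.9 CPM of Klf5, 71.0 CPM of Tfcp2l1 and 51.2 CPM of Klf4, all nearer to TKO than to WT J1 cells, and the inhibitor control held 848 CPM of Klf5. The 1 higher gene, Spic, an Ets-family factor of the naive state, had 45.3 CPM in TKO cells and 3.10 CPM in WT J1 cells, 14.6-fold higher (10.9 to 20.0). The other members, from Nr5a2 and Utf1 at the top through Dppa2, Sall4, Zfp57, Stat3, Dppa4, Fgf4, Il6st, Prdm14, Klf2, Gbx2, Nr0b1, Lifr and Socs3 to Tdh at the bottom, lay between 0.91 and -0.93 on the log2 scale.

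Formative and primed genes, of the next step toward differentiation, were represented by 13 measured genes of 21 listed. Of these 6 were higher and 2 lower, against 11.1% and 10.5% of all measured genes. All 13 had at least 1 CPM in WT J1 cells, a level at which 7.59% of genes were higher. Otx2, which drives exit from the naive state, had 25.3 CPM in TKO cells, against 5.15 CPM in WT J1 cells, 4.92-fold higher (3.86 to 6.33). Grhl2, an epithelial regulator, had 15.1 CPM in TKO cells and 3.10 CPM in WT J1 cells, 4.86-fold higher (3.56 to 6.78). Lefty1 and Lefty2, feedback inhibitors of Nodal, were lower, Lefty1 with 24.2 CPM in TKO cells and 128 CPM in WT J1 cells. Both Lefty genes were lower still in WT TT2 cells, at 8.37 CPM of Lefty1 and 17.0 CPM of Lefty2.

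The list with the most members lower was the integrated stress response, the program that the transcription factor Atf4 drives when amino acids are short or protein folding fails. Of 24 measured genes, all with at least 1 CPM in WT J1 cells, 14 were lower and 0 higher, where 10.5% of all measured genes were lower. On the deposited TPM 9 of 23 were lower and 1 higher. The median was -1.32 and stayed between -0.87 and -1.36 over the scalings tried. Atf4 had 26.8 CPM in TKO cells, against 184 CPM in WT J1 cells, 6.86-fold lower (6.24 to 7.57). Its target Ddit3, also called Chop, had 4.98 CPM in TKO cells and 47.8 CPM in WT J1 cells, 9.59-fold lower (7.71 to 12.1). Chac1, which degrades glutathione, had 2.81 CPM in TKO cells and 63.0 CPM in WT J1 cells, 22.4-fold lower (16.9 to 30.2). Nupr1, a stress-induced chromatin protein, led the lower protein-coding genes with standard symbols, with 6.22 CPM in TKO cells and 284 CPM in WT J1 cells, 45.6-fold lower (37.9 to 55.3).

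Untreated WT TT2 cells were near WT J1 cells or between them and the knockouts, with 172 CPM of Atf4, 40.1 CPM of Ddit3, 61.0 CPM of Chac1 and 147 CPM of Nupr1. DKO cells lay between TKO and both untreated wild types for these 4 genes, at 78.2, 12.6, 8.77 and 23.6 CPM. The inhibitor control was divided, with 215 CPM of Atf4 and 40.8 CPM of Chac1, but 3.38 CPM of Ddit3, below the TKO level, and 12.2 CPM of Nupr1, below the DKO level. Set against WT TT2 instead of WT J1, 15 of the 26 genes measured were lower in TKO cells and 0 higher. Of all 13757 genes measured there, 1026 were lower and 972 higher.

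**Figure D3:**
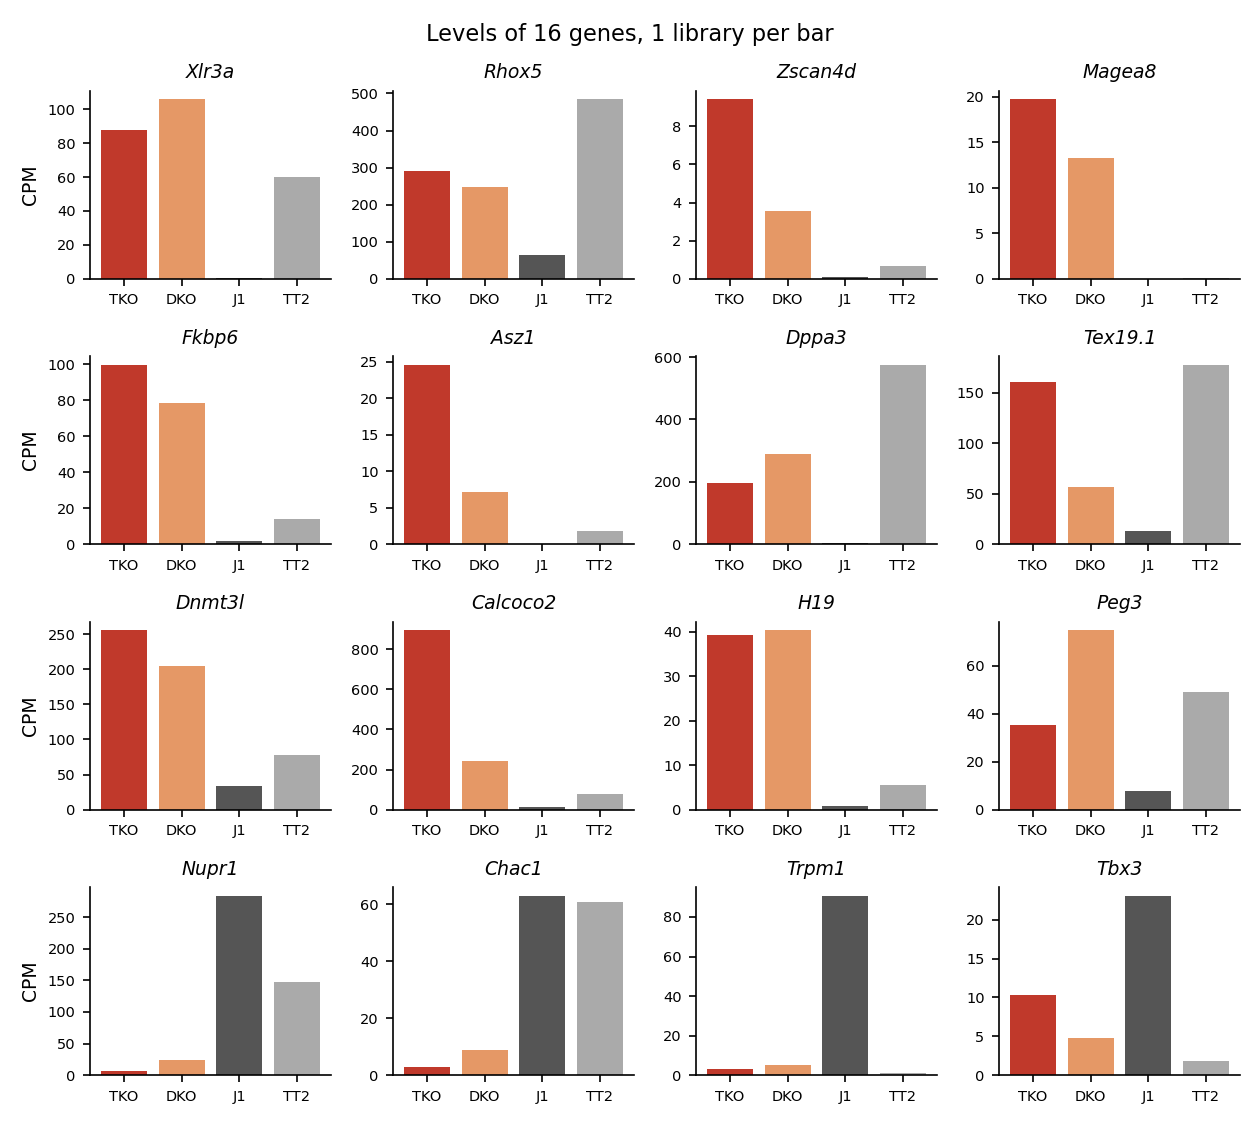
Levels in CPM of 16 genes in TKO, DKO, WT J1 and WT TT2 cells, 1 library per bar and a separate linear axis for each gene. Magea8, Zscan4d and Asz1 are near 0 in both wild types, Dppa3, Tex19.1, Rhox5 and Peg3 are low in WT J1 but not in WT TT2 cells, Nupr1 and Chac1 are low in both knockouts, and Trpm1 is high in WT J1 cells alone.

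Several of the 15 largest lower genes were instead high in WT J1 alone. Trpm1, a cation channel gene of melanocytes and retina, had 3.08 CPM in TKO cells, against 90.6 CPM in WT J1 cells, 29.4-fold lower (22.5 to 39.0), with 1.24 CPM in WT TT2 cells. Ripply3, a repressor of T-box factors, had 2.87 CPM in TKO cells and 75.3 CPM in WT J1 cells, with 2.23 CPM in WT TT2 cells. Abca1, the cholesterol exporter, had 4.38 CPM in TKO cells and 72.3 CPM in WT J1 cells, with 3.75 CPM in WT TT2 cells. Pou4f2, Ahnak2 and Ms4a6d shared the pattern. Bhlhe41, a repressor linked to the circadian clock, differed, with 0.595 CPM in TKO cells, against 23.4 CPM in WT J1 cells and 21.5 CPM in WT TT2 cells, though 1.32 CPM in the inhibitor control. Among the others of the 15, Bdh2, Bhlhe40, S100a1, Mymx and Cntd1 each had between 1.89 and 20.1 CPM in TKO cells and between 30.7 and 229 CPM in WT J1 cells.

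Genes of cell stress and growth outside that program were mixed. Of 21 measured p53 targets, 6 were higher and 2 lower, against 11.1% and 10.5% of all measured genes, the lower pair being Pmaip1 (Noxa), with 5.25 CPM in TKO cells and 42.8 CPM in WT J1 cells, and Perp. Against WT TT2, 0 of the p53 targets were higher and 3 lower, where 972 and 1026 of all 13757 measured genes were. The metallothioneins, which bind zinc and copper, were lower: Mt1 had 247 CPM in TKO cells and 889 CPM in WT J1 cells, and Mt2 had 212 CPM in TKO cells and 779 CPM in WT J1 cells. Cyclin D2 (Ccnd2) had 9.85 CPM in TKO cells and 1.92 CPM in WT J1 cells, and the cell cycle inhibitor p27 (Cdkn1b) had 1.25 CPM in TKO cells and 7.07 CPM in WT J1 cells. Over 27 cell cycle genes 7 were higher and 3 lower, against the same 11.1% and 10.5%. With WT TT2 as the control 3 were higher and 3 lower, against the same 972 and 1026 of 13757. Of 82 ribosomal protein genes, 12 were lower and 2 higher, against 10.5% and 11.1% of all measured genes. The count did not hold across scalings, with 5 lower and 3 higher on total counts, 3 lower and 4 higher on the deposited TPM, and 4 each way against WT TT2. Their median was -0.51; it ran from -0.55 to -0.15 over the scalings and was -0.02 against WT TT2. Rpl39l, the testis-enriched copy of Rpl39, was the exception at the top, with 430 CPM in TKO cells and 74.9 CPM in WT J1 cells, while Rpl39 itself had 405 CPM in TKO cells and 1109 CPM in WT J1 cells.

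Interferon response and nucleic acid sensing genes detect and answer foreign nucleic acid, and double-stranded RNA of retrotransposons can set them off. Of 24 measured, 2 were higher and 2 lower. Oas1a had 21.1 CPM in TKO cells and 4.03 CPM in WT J1 cells, 5.22-fold higher (3.98 to 6.96), with 16.9 CPM in WT TT2 cells. B2m, the light chain of class I antigen presentation, had 57.9 CPM in TKO cells and 443 CPM in WT J1 cells, 7.65-fold lower (7.17 to 8.17), with 85.4 CPM in WT TT2 cells. The share of calls on this list, 4 of 24, was near the 21.7% of all measured genes.

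Counts for other repressive layers stand against 11.1% higher and 10.5% lower among all measured genes. Of 19 genes of H3K9 methylation and KRAB repression 2 were higher and 0 lower. Trim28, the corepressor that zinc-finger proteins recruit to retrotransposons and imprinted regions, had 652 CPM in TKO cells, against 214 CPM in WT J1 cells, 3.05-fold higher (2.93 to 3.17), with 429 CPM in WT TT2 cells. Ehmt2, which encodes G9a, the H3K9 methyltransferase the wider study is about, had 17.9 CPM in TKO cells and 6.87 CPM in WT J1 cells, 2.60-fold higher (2.08 to 3.27), with 15.2 CPM in WT TT2 cells. Of 21 Polycomb genes 5 were higher and 0 lower, and without chromosome 11 that became 2 of 15. Among 15 genes of demethylation and methyl-CpG reading, 2 were higher and 3 lower. Gadd45g, a stress-response gene linked to demethylation, had 6.55 CPM in TKO cells and no count in WT J1 cells, at least 33-fold higher.

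Promoter CpG number was compared over 9886 protein-coding genes with a RefSeq promoter, 82.9% of those measured outside chromosome 18. The share of higher genes was 30.0% among genes with 0 to 2 CpGs in the window and 8.21% among those with 31 or more, while the share of lower genes lay between 7.86% and 12.6% in every class. Genes with CpG-poor promoters are often silent, and a gene under 1 CPM in WT J1 cells entered only if it was higher. Among genes with at least 1 CPM in WT J1 cells the shares of higher genes were 11.1% with 0 to 2 CpGs, 13.9% with 3 to 5, and 6.78% with 31 or more. The fall across classes was smaller at that level than over all measured genes. The median promoter held 17 CpGs among higher genes, 20 among lower ones and 21 among the rest.

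The 17 higher germline genes with a promoter had a median of 16 CpGs, where the 10 Xlr genes had 7. The NRF1 core stood in 41.2% of those germline promoters, against 6.91% of the promoters of all measured genes and 3.65% of the 27018 in the table. The E2F-type motif stood in 23.5% of them, against 8.86% of measured genes, and the E-box in 29.4%, against 10.4%. Promoters of integrated stress response genes held the cyclic AMP response element core in 19% of 21 cases, against 12%. These shares describe letters in small sets and were not tested.

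**Figure D4:**
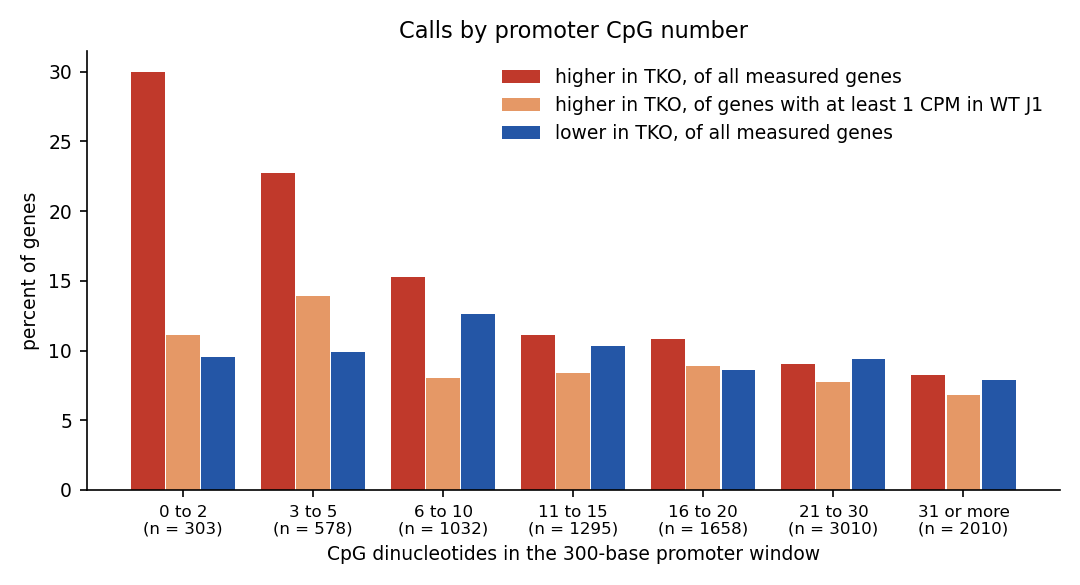
Percent of genes that were higher or lower in TKO than in WT J1 cells, by the number of CpG dinucleotides in the 300-base promoter window, with the number of measured genes under each class. The share of higher genes runs from 30.0% in the poorest class to 8.21% in the richest, and from 11.1% to 6.78% when only genes with at least 1 CPM in WT J1 cells are taken.

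Chromosome 11 stood apart from the others. The median difference of its 667 genes that reached 10 CPM in TKO or WT J1 cells was 0.60, with 80.2% of them above 0, against -0.09 for the 7400 genes elsewhere. Of its measured genes 24.0% were higher and 4.83% lower. WT TT2 cells differed from WT J1 cells in the same way, by a median of 0.63, and TKO cells lay at -0.04 relative to WT TT2 and 0.37 relative to DKO. The DKO median against WT J1 was 0.22. Calcoco2, Mgl2, Tex19.1, Nefh, Epop and Suz12, all called higher, are on chromosome 11. Their differences from WT J1 ran from 5.75 for Calcoco2 to 1.03 for Suz12. Of measured genes placed on other chromosomes, 10.1% were higher and 10.8% lower. How much of each difference is shared by the whole chromosome was not tested. Without chromosome 11, 1276 genes were higher and 1405 lower. What sets the genes of this chromosome apart in WT J1 cells was not tested.

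On the X chromosome 21.0% of 523 measured genes were higher, the most after chromosome 11, while its median over genes that reached 10 CPM was -0.11. Its Xlr, Rhox and Mage genes, described above, are part of that count. Chromosome 14 had the lowest such median of the autosomes, -0.34, and 21.6% of all its measured genes were lower. Its median was -0.08 for TKO relative to WT TT2 and -0.22 for WT TT2 relative to WT J1.

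**Figure D5:**
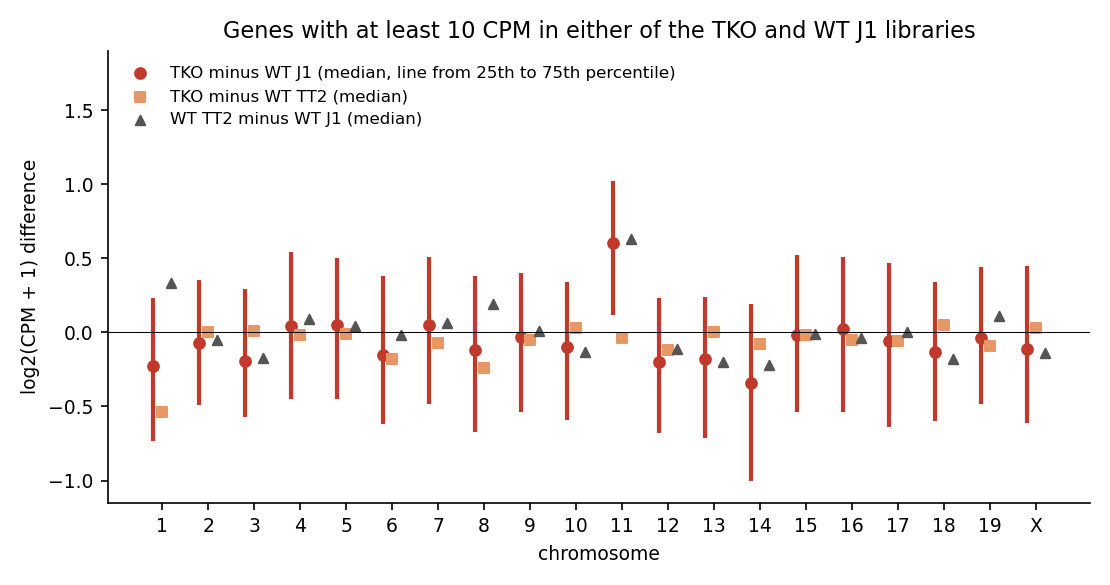
Median difference in log2(CPM + 1) per chromosome over genes with at least 10 CPM in the TKO or WT J1 library: TKO minus WT J1 (circles, lines from the 25th to the 75th percentile), TKO minus WT TT2 (squares) and WT TT2 minus WT J1 (triangles). Chromosome 11 lies at 0.60 for TKO minus WT J1 and at -0.04 for TKO minus WT TT2.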

How the data were processed

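RNA was measured in 10 libraries, each the single library of its group; 120 other samples were not analysed here. The submitters' processing notes name STAR 2.5.3a, RSEM and the build GRCm38 (mm10); the sources used here give no annotation release or strand setting. The deposited expected counts of genes, with reads of several matches divided between them by RSEM, were rounded to whole numbers. The deposited TPM values are scaled by the authors' RSEM run for effective length and library total, per the file headers. The posterior SD of each count, also deposited by the authors, was used to leave out uncertain genes in 1 alternative.

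Counts were scaled to CPM with TMM factors over all 10 libraries (edgeR 4.0.16, R 4.3.3). Differences are of log2(CPM + 1), whereas a fold divides the CPM values with nothing added. A gene was called when the difference was at least 1 on the log2 scale, at least 1 CPM was reached in either library, and an exact 95% interval of the ratio (Clopper-Pearson, binomial given the sum of both counts) left out 1. Against 0 counts, the fold was taken to a floor of 3 counts in that library, 0.162 CPM for TKO and 0.198 CPM for WT J1. Total counts of 17595050 and 16405518 set this precision. The rule describes libraries, not conditions. Of the chromosome Y genes, 8 passed the minimum and were left out.

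Of 52550 gene IDs, 52403 (99.7%) matched a symbol, and places and types came from a RefSeq table (GRCm38.p6) for 96.6% of measured genes. The members and the 30 gene lists were chosen with earlier results of these data known. In the list of 2-cell-stage genes, 4 entries were changed to exact matches and 1 was removed after the files were opened, because matching by the start of a symbol had taken unrelated genes. Named genes were the targeted genes, the protein-coding genes with standard symbols and 10 CPM or more that differed most (15 higher, 15 lower), up to 5 called members of each list that had 3 or more measured, by size of difference, and every measured member of the lists of methylation writers and naive pluripotency; any others are marked as named after their values were seen, and a few genes that met the rule are not reported here. A list is described by its counts and median, with no set test. Near-identical families (Xlr, Rhox2, Magea, Zscan4, Tuba3, histones) are uncertain gene by gene.

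Alternatives were other scalings (TMM over the 2 libraries, DESeq2 1.42.0 size factors, total count), the deposited TPM, other minimums, another pseudocount and threshold, WT TT2 as the control, protein-coding genes alone, and leaving out genes with a posterior SD over 20% of the count. On the deposited TPM a call asked for the size threshold and 1 TPM in either library, with no counting interval. Leaving out chromosome 11 was added after seeing the data. Lists without a paragraph of their own had these counts, as members higher and lower out of those measured: primitive endoderm 2 and 2 of 16, mesoderm and endothelial 1 and 0 of 8, fibroblast and feeder 3 and 1 of 8, sterol biosynthesis 0 and 2 of 23, glycolysis and hypoxia 4 and 2 of 30, mitochondrially encoded 0 and 0 of 8, replication-dependent histones 9 and 3 of 45, metallothioneins and oxidative defence 3 and 4 of 19, and clustered protocadherins 0 and 0 of 4. Over all measured genes 11.1% were higher and 10.5% lower.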

Additional observations from a re-analysis of the deposited data

How the results depend on the processing

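No paired analysis was possible because each RNA group has 1 library.

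The counts of higher and lower genes stayed within 1.5 times of 1539 and 1458 with TMM factors of the 2 libraries, DESeq2 size factors, total counts, no minimum, a pseudocount of 0.25 CPM, protein-coding genes alone, genes of low posterior SD, and without chromosome 11, and so did the higher count on TPM. They were 786 and 932 with a minimum of 10 CPM and 266 and 204 at a log2 threshold of 2, both by construction. On the deposited TPM 833 genes were lower and the cause was not tested. With WT TT2 as the control 972 were higher and 1026 lower, of which 460 and 276 were among the 1539 and 1458.

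Of 152 called named genes, 3 lost the call with either other composition factor, 5 with total counts and 25 on the deposited TPM, with no change of sign. With WT TT2 as the control 39 lost it but kept their sign, and 35 others changed sign. Of 60 list counts, 2, 2, 13, 21 and 29 left the 1.5-fold range in these 5 settings. The 35 called genes that changed sign did so only with WT TT2 as the control. The higher ones came to these log2 differences: Dppa3 -1.54, Mbd3 -0.06, Epop -0.10, Tuba3a -0.01, Tex19.1 -0.15, Rhox6 -0.64, Rhox9 -0.95, Peg3 -0.47, Snrpn -1.14, Aen -0.64, Ccnd2 -1.90, Rhox5 -0.73. The lower ones came to: Trpm1 0.87, Ripply3 0.26, Pou4f2 1.70, Ahnak2 0.08, Abca1 0.18, Ms4a6d 0.28, Apobec2 1.32, Tet3 1.02, Slc22a18 0.25, Tbx3 1.99, Tcl1 0.20, Dppa5a 0.92, Lefty1 1.43, Lefty2 2.51, Sox7 0.10, Srgn 3.24, Rps20 0.53, Rpl39 0.35, Rps15a 0.13, Nqo1 0.29, Mageh1 0.07, Stag3 0.73, Terb1 0.14. For these genes the difference from WT J1 does not hold against the other wild type, which has another strain background.

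One library per group allows no estimate of spread between cultures or clones. At these depths a gene with no count in a library can lie anywhere up to 0.162 CPM in TKO cells or 0.198 CPM in WT J1 cells.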

Other observations

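Loci outside the naming rule, listed here after their values were seen, held some of the largest differences. 1700013H16Rik, an X-linked protein-coding gene with a clone name, had 95.8 CPM in TKO cells, against 0.0661 CPM in WT J1 cells, from 1 count, a ratio of 1449 (260 to 57280). It had 95.2 CPM in DKO cells and 1.36 CPM in WT TT2 cells. Neat1, the noncoding RNA scaffold of nuclear paraspeckles, had 10.0 CPM in TKO cells and 176 CPM in WT J1 cells, 17.6-fold lower (15.1 to 20.5), and 11.4 CPM in WT TT2 cells. Mir17hg, the host of the miR-17 cluster on chromosome 14, had 14.0 CPM in TKO cells and 106 CPM in WT J1 cells, and 17.3 CPM in WT TT2 cells. Gm10800 had 13.3 CPM in TKO cells and 1163 CPM in WT J1 cells, and 68.4 CPM in WT TT2 cells. For Neat1, Mir17hg and Gm10800, WT J1 cells were thus the high library of the 4.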
